A study of Homo sapiens with 6 samples.

Results

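The genes described here are 37 components and response genes of the NF-kappaB pathway, chosen by name: the DNA-binding subunits, the IkappaB proteins, the kinases, the TRAF and BIRC proteins, the negative regulators and a set of known response genes. A gene was read where a probe set on the array carried its symbol and no other, at the probe set with the highest mean over the 6 arrays. This gave 33 of the 37, among 19775 genes in all. BCL3 and ZC3H12A had probe sets only under shared symbols, and these 2 genes, BIRC3 and TRAF2 were not analysed here. The 37 genes were chosen with earlier results of these data known.

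NF-kappaB is a family of dimers of REL-domain proteins that IkappaB proteins hold in the cytoplasm. Signals from cytokine, toll-like and TNF-family receptors activate IkappaB kinase through TRAF adaptors and upstream kinases, IkappaB is degraded, and the dimers enter the nucleus. Their targets include cytokines, adhesion molecules and survival genes, and also the pathway's own inhibitors, among them NFKBIA and TNFAIP3, so that transcripts of these feedback genes are often read as a sign of activity. In epithelial cells the pathway is known for its part in inflammatory and survival responses, and C/EBPbeta is known to act with NF-kappaB on several cytokine promoters.

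RNA was measured in cultures of MCF10A, an immortalised but not tumorigenic human mammary epithelial line, on Affymetrix arrays. The 3 arrays of one group are labelled as cells with C/EBPbeta-2, an isoform of the CEBPB transcription factor, and the 3 of the other as MCF10A cells alone, called control here. All cells were grown in medium with horse serum, insulin, hydrocortisone, EGF and cholera toxin, and the labels list no treatment. How the isoform was brought in, and whether each group was 1 clone or a pool, is not stated in the labels. The samples are labelled as biological replicates, but not as separate cultures or passages, and the p-values may therefore reflect technical spread alone.

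Values are log2 intensities unless a fold is named, and the number of arrays limits their precision. The CEBPB probe set read 10.29, 10.50 and 11.38 on the C/EBPbeta-2 arrays and 11.27, 11.38 and 11.37 on the control arrays (difference -0.62, SE 0.30, limma adjusted p = 1.00). It was not higher with C/EBPbeta-2. Whether its probes lie within the introduced sequence was not analysed here, so the labels were not checked by this gene. The epithelial marker KRT5 was bright in both groups (means 12.51 and 12.64), while the leukocyte marker PTPRC (3.36 and 3.27) and the endothelial marker CDH5 (2.69 and 2.75) lay below the array medians of 4.46 to 4.56. Below all array medians in their mean were 2 of 5 leukocyte, 3 of 4 endothelial and 5 of 7 fibroblast markers read. Those not below them included CD79A (means 4.93 and 5.16), PECAM1 (5.30 and 5.54) and COL1A1 (6.70 and 6.84). Summed over the 5 leukocyte markers read of 6 listed, the linear intensity was 203.9 to 245.7 on the C/EBPbeta-2 arrays and 155.6 to 162.9 on the control arrays, with CD14 at means of 7.08 and 6.16. That of the 7 fibroblast markers was 300.6 to 493.2 against 683 to 3636, set mainly by DCN (means 7.55 and 10.16), while LUM was dim in both groups (2.74 and 2.71). The sum of the 4 endothelial markers was 74.16 to 82.5 against 80.09 to 110.4. For basal epithelium (5 markers read of 9) the sum was 10060 to 14700 against 17720 to 23850. The gap was set mainly by KRT14 (means 10.33 and 13.34), while KRT5 differed by -0.13. KRT14 and CDH1 fell (limma adjusted p = 0.0300 and 0.0245). LAMB3 read higher by 1.17 and was not called (limma adjusted p = 0.833). The calls were lost when most single arrays were left out. KRT14 stayed called only without C/EBPbeta-2 replicate 2, and CDH1 only without control replicate 2. Leaving out any other array gave an adjusted p by limma of 0.0656 to 0.199 for KRT14 and 0.0755 to 0.159 for CDH1. With the mean of its probe sets CDH1 was not called (limma adjusted p = 0.194). The part of these markers in the results was not tested. Poly-A spike-in RNA read low on C/EBPbeta-2 replicate 2 (3.85) and control replicate 1 (3.98) and 7.21 to 8.25 on the other 4 arrays.

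No NF-kappaB gene passed the test. Limma called 0 of the 33 at an adjusted p under 0.05, against 54 of all 19775 genes (0.273%; 0.091% called higher with C/EBPbeta-2 and 0.182% lower), and 4 of the 33 had an unadjusted p under 0.05 (12.1%, against 5.17% of all genes). These 4 were the caspase-8 regulator CFLAR, the early response gene IER3 and the kinase IKBKE, all read higher with C/EBPbeta-2, and the inhibitor NFKBIA, read lower. The groups did not overlap for 7 of the 33 (21.2%), against 8.63% of all genes: 4 were higher with C/EBPbeta-2 (CFLAR, IKBKE, ICAM1 and RELA; 4.62% of all genes) and 3 lower (NFKBIA, SOD2 and TRAF1; 4.01% of all genes). The counts depended on single arrays. The count at an unadjusted p under 0.05 was 1 without control replicate 1 (4.53% of all genes there). It was 2 without C/EBPbeta-2 replicate 1 (4.93%), C/EBPbeta-2 replicate 3 (3.97%) or control replicate 3 (4.06%). With no overlap there were 16 of the 33 without C/EBPbeta-2 replicate 1, where 17.7% of all genes did not overlap. Without control replicate 2 there were 11 of the 33, where 21.1% of all genes did not overlap.

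The differences were small for most of these genes. The median log2 difference, C/EBPbeta-2 minus control, was 0.06 over the 33 genes and 0.01 over all genes, with 19 of the 33 above 0 and 14 below. Only IER3 and SOD2 differed by at least 2-fold, 2 of the 33, against 2.57% of all genes. For 17 of the 33 (51.5%) the unadjusted 95% interval of the difference lay within a 2-fold change in both directions, which held for 71.9% of all genes. For the other 16 these arrays do not bound the difference to under 2-fold. Without C/EBPbeta-2 replicate 1 the median of the 33 was 0.21.

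**Figure D1:**
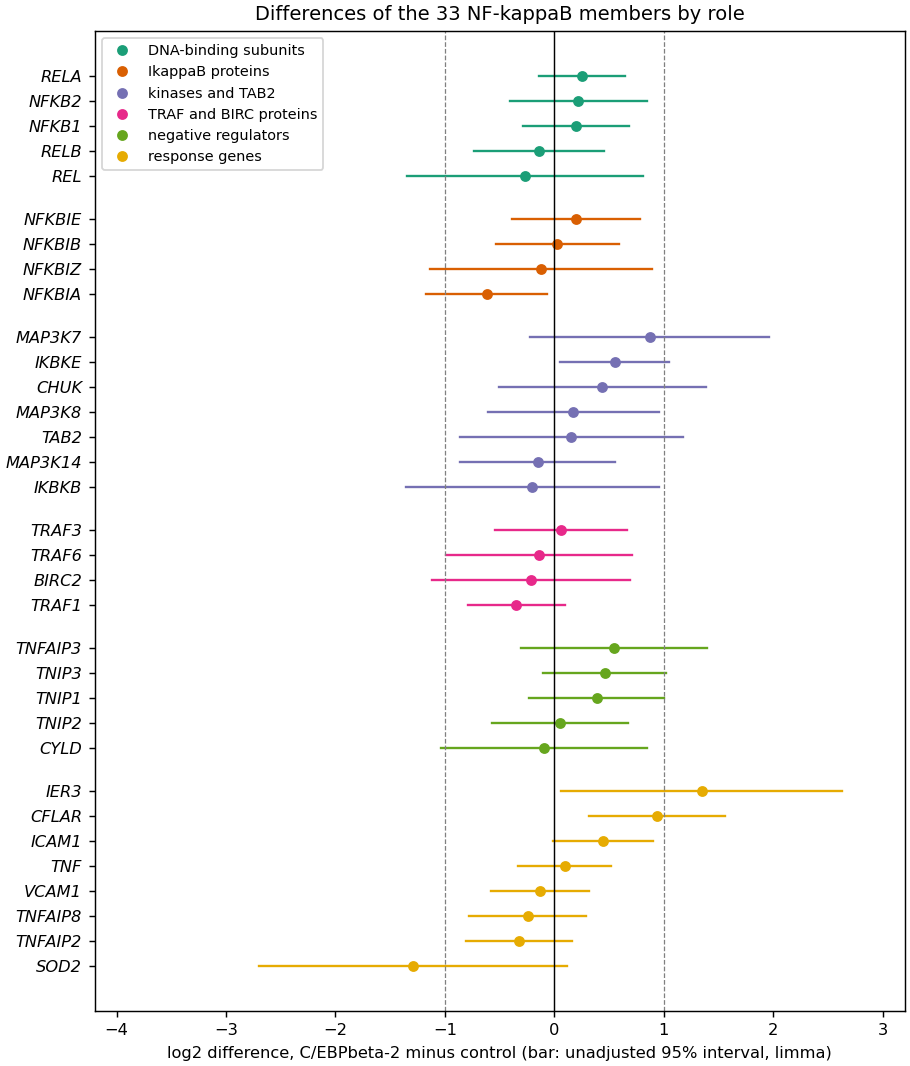
Log2 difference, C/EBPbeta-2 minus control, of each of the 33 NF-kappaB genes, grouped by role, with the unadjusted 95% interval from limma (n = 3 arrays per group). Dashed lines mark a 2-fold change in either direction, and only the points of IER3 and SOD2 lie beyond them.

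To show what these genes share in sequence, their promoters were searched for the 10-base kappaB consensus, the letters that NF-kappaB dimers bind, and for a C/EBP core written TTGCNNAA. Both strands were searched, overlapping matches were merged, and the window ran from 250 bases before to 50 bases after each RefSeq start on GRCh38.p14. Promoters were found for 29 of the 33 genes, and not for IER3, IKBKB, NFKBIE and RELB. The kappaB consensus lay in a promoter of 15 of the 29 genes (51.7%), against 7.09% of all 27305 genes in the promoter table, and the C/EBP core in 3 of the 29 (10.3%), against 12.7%. Counted by promoter, since a gene can have several, kappaB was in 21 of 54 (38.9%) against 5.91% of 35116, and the C/EBP core in 4 of 54 (7.41%) against 10.5%. The genes were chosen by name as components and known response genes of this pathway. The higher kappaB share may therefore follow from that choice, and no array value enters it. A match describes letters and does not show binding. The genes with a kappaB match did not share a direction: 10 were above 0 and 5 below, with a median log2 difference of 0.16 and a range of -0.62 to 0.94, and the 14 genes without one had a median of -0.04 and a range of -1.29 to 0.87. The next 3 windows, of 60 bases each, show the match in the gene of this pathway with the lowest difference among those with a match, in the one with the highest, and in a feedback gene with 2 matches; capitals mark the kappaB matches.
NFKBIA: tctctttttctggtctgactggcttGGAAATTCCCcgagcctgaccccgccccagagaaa
CFLAR: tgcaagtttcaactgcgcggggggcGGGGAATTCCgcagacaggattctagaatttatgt
TNFAIP3: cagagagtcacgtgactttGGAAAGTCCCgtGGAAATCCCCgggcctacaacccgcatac
The windows lie at chr14:35404796-35404855 on the minus strand (NFKBIA), chr2:201118594-201118653 on the plus strand (CFLAR) and chr6:137867173-137867232 on the plus strand (TNFAIP3), all upstream of the start.

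Of the 5 DNA-binding subunits 0 were called, and 4 had an unadjusted 95% interval within 2-fold both ways. RELA, which carries a transactivation domain and forms the common dimer with NFKB1, read 8.32, 8.08 and 8.42 with C/EBPbeta-2 and 7.96, 8.06 and 8.05 in control. All 3 C/EBPbeta-2 arrays lay above the control arrays, the lowest by a narrow margin, and the difference was 0.25 (SE 0.17, 95% interval -0.14 to 0.65, limma adjusted p = 1.00). Its second probe set differed by 0.06. NFKB1, the precursor of p50, differed by 0.20 (-0.29 to 0.68) and NFKB2, the precursor of p52, by 0.22 (-0.41 to 0.84). RELB, the usual partner of p52, differed by -0.14 (-0.73 to 0.45). For these 4 subunits the interval excluded a 2-fold change either way. REL, the lymphoid-rich subunit, was more variable, at 6.20, 7.04 and 7.86 against 7.70, 6.73 and 7.48, a difference of -0.27 (-1.35 to 0.81) that was 0.15 without C/EBPbeta-2 replicate 1.

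Among the IkappaB proteins NFKBIA stood apart. NFKBIA, which encodes IkappaB-alpha, the main feedback inhibitor and the gene with the promoter match shown above, read 9.54, 9.64 and 10.27 with C/EBPbeta-2 and 10.38, 10.37 and 10.56 in control. Every C/EBPbeta-2 array lay below every control array, with replicate 3 close to them. The difference was -0.62, a 1.53-fold lower intensity (SE 0.23, 95% interval -1.17 to -0.06, unadjusted p = 0.0334 and adjusted p = 0.823 by limma). It was -0.73 between the pair of arrays with little spike-in RNA, -0.56 over the other 4 arrays and -0.31 at its other, dimmer probe set. NFKBIB and NFKBIE, the other cytoplasmic inhibitors, differed by 0.03 (-0.53 to 0.59) and 0.20 (-0.38 to 0.78), within 2-fold both ways. NFKBIZ, a nuclear IkappaB protein induced by interleukin-1, differed by -0.12 with a wide interval (-1.14 to 0.89), since it ranged from 6.43 to 7.61 with C/EBPbeta-2 and from 6.70 to 7.99 in control.

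The kinases gave 1 gene with separated groups. IKBKE, a kinase related to IkappaB kinase that acts in interferon and NF-kappaB signalling, read 6.97, 6.80 and 6.85 with C/EBPbeta-2 and 6.25, 6.68 and 6.03 in control. The C/EBPbeta-2 arrays lay close together and above all control arrays, of which replicate 2 came nearest. The difference was 0.55, or 1.47-fold (SE 0.21, 95% interval 0.05 to 1.05, unadjusted p = 0.0348 and adjusted p = 0.833 by limma). It was 0.56 between the pair with little spike-in RNA and 0.55 over the other 4 arrays, and 0.28 at the second probe set of the gene, where the groups overlapped.

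MAP3K7, which encodes the kinase TAK1 that activates IkappaB kinase, read 7.66, 8.43 and 7.91 against 7.69, 6.08 and 7.61. Control replicate 2 stood far below the other 5 arrays, and the groups overlapped. The difference was 0.87 (SE 0.46, 95% interval -0.22 to 1.97, limma adjusted p = 1.00). It was 0.35 without control replicate 2 and 0.39 as the mean of its 4 probe sets. Its partner TAB2, which links TAK1 to ubiquitin chains, differed by 0.16 (-0.86 to 1.17).

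The catalytic subunits of IkappaB kinase did not differ beyond their spread. CHUK, or IKK-alpha, differed by 0.44 (-0.51 to 1.38) and IKBKB, or IKK-beta, by -0.20 (-1.36 to 0.96), both with intervals that reach 2-fold. MAP3K14, the NIK kinase of the non-canonical pathway, differed by -0.15 (-0.86 to 0.56). MAP3K8, the TPL2 kinase released when p105 is degraded, differed by 0.17 (-0.61 to 0.96) at a dim probe set. Its control arrays read 3.86 to 3.88 and its C/EBPbeta-2 arrays 3.50 to 4.79, and the difference was -0.20 without C/EBPbeta-2 replicate 1.

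The TRAF and BIRC proteins, adaptors and ubiquitin ligases that join receptors to the kinases, showed no difference of 1.5-fold or more among the 4 read. TRAF1, an adaptor that is itself an NF-kappaB target, read 3.52, 3.54 and 3.67 with C/EBPbeta-2 and 4.19, 3.70 and 3.88 in control. The C/EBPbeta-2 arrays lay below all control arrays, the nearest pair only a little apart, and all 6 were below the array medians, where a level is uncertain. The difference was -0.35 (SE 0.19, 95% interval -0.79 to 0.10, limma adjusted p = 1.00). TRAF3, which restrains the non-canonical pathway, differed by 0.06 (-0.54 to 0.66) and TRAF6, the adaptor of interleukin-1 and toll-like receptors, by -0.14 (-0.99 to 0.71). BIRC2, or cIAP1, differed by -0.21 (-1.12 to 0.69).

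Of the 5 negative regulators read, 4 were above 0 and none of the 5 was called. TNFAIP3, the ubiquitin-editing enzyme A20, read 6.93, 8.32 and 7.65 with C/EBPbeta-2 and 7.36, 6.84 and 7.07 in control. C/EBPbeta-2 replicate 2 was the highest array and replicate 1 lay inside the control range. The difference was 0.54 (-0.31 to 1.39), but 0.20 without C/EBPbeta-2 replicate 2. Its binding partners TNIP1, TNIP2 and TNIP3 differed by 0.39 (-0.23 to 1.00), 0.05 (-0.57 to 0.67) and 0.46 (-0.10 to 1.02), the last at a probe set below the array medians. The deubiquitinase CYLD differed by -0.10 (-1.04 to 0.84) and was between -0.10 and 0.27 at its 7 probe sets.

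**Figure D2:**
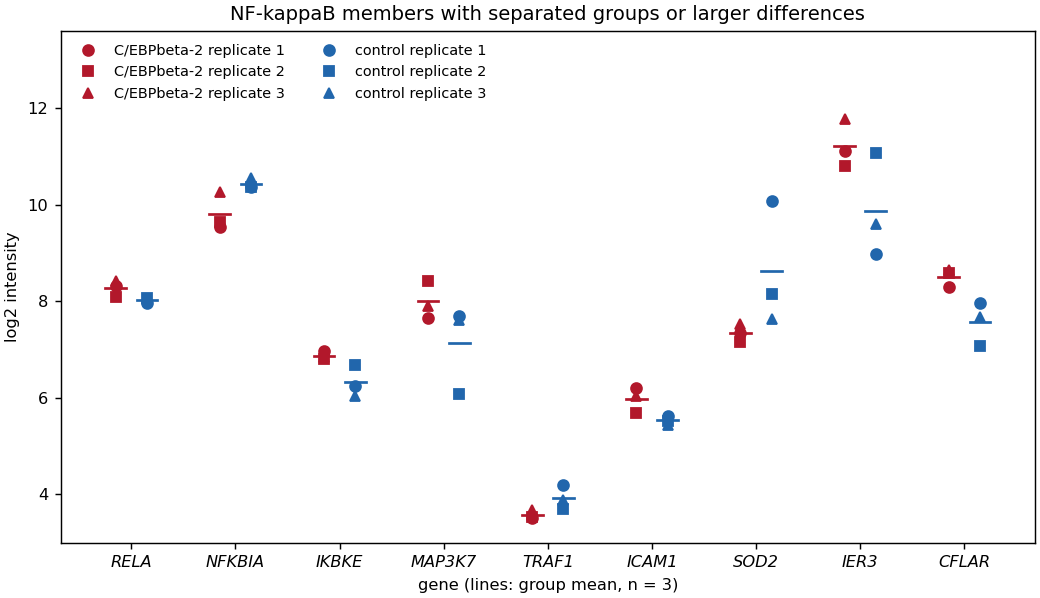
Log2 intensity of the 9 NF-kappaB genes with an unadjusted p under 0.05, groups that do not overlap or a difference of at least 0.58, on each of the 6 arrays, with horizontal lines at the group means (n = 3). The groups are apart for 7 of the 9; in MAP3K7 control replicate 2, and in SOD2 control replicate 1, sits far from the rest of its group.

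The response genes held the largest differences, in both directions. CFLAR, which encodes the survival protein c-FLIP that blocks caspase-8, read 8.30, 8.60 and 8.65 with C/EBPbeta-2 and 7.97, 7.08 and 7.68 in control. All C/EBPbeta-2 arrays lay above all control arrays. The difference was 0.94, or 1.91-fold (SE 0.26, 95% interval 0.32 to 1.56), with the lowest p of the 33 genes (unadjusted 0.00926, adjusted 0.477 by limma). Between the pair with little spike-in RNA it was 0.63, over the other 4 arrays 1.09, and 0.69 to 1.13 with each array left out in turn.

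CFLAR was read by 14 probe sets, 13 of which were higher with C/EBPbeta-2, with differences from -0.13 to 0.94 and a median of 0.57. All 12 with a mean above every array median were higher, and the groups did not overlap at 2 of the 14, where 7.62% of all probe sets do not overlap. The brightest belongs to the _x_at class, which can share probes with other transcripts. The probe sets of 1 gene read the same 6 RNA samples and so are not independent.

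IER3, an early response gene that restrains apoptosis, read 11.11, 10.80 and 11.77 with C/EBPbeta-2 and 8.98, 11.07 and 9.60 in control. Control replicate 2 lay among the C/EBPbeta-2 arrays, and the other 2 control arrays were well below. The difference was 1.34, or 2.54-fold (SE 0.54, 95% interval 0.06 to 2.63, unadjusted p = 0.0427 and adjusted p = 0.908 by limma). Leaving out control replicate 2 gave 1.94, and leaving out control replicate 1 gave 0.89, with no call by limma in either case (adjusted p 0.142 and 1.00, and 0.0910 to 1.00 over all alternatives).

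SOD2, the mitochondrial superoxide dismutase and a classic NF-kappaB target, read 7.34, 7.16 and 7.53 with C/EBPbeta-2 and 10.09, 8.16 and 7.64 in control. The C/EBPbeta-2 arrays lay below all control arrays, and control replicate 1 stood far above the other 5. The difference was -1.29 (SE 0.59, 95% interval -2.70 to 0.12, limma adjusted p = 1.00). It was -0.56 without control replicate 1, -2.94 between the pair with little spike-in RNA and -0.47 over the other 4 arrays. SOD2 was read at 1 probe set. A further 4 probe sets carry its symbol beside another and were not used.

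ICAM1, the adhesion molecule for leukocytes, read 6.20, 5.69 and 6.05 with C/EBPbeta-2 and 5.63, 5.53 and 5.44 in control. The C/EBPbeta-2 arrays lay above all control arrays, replicate 2 narrowly. The difference was 0.44, or 1.36-fold (SE 0.19, 95% interval -0.01 to 0.90, limma adjusted p = 0.990), but 0.06 between the pair with little spike-in RNA and 0.64 over the other 4 arrays. Its other probe sets gave 0.11 and -0.13, and a second quantile normalization made the last of these the brightest. TNF and VCAM1, a cytokine and an adhesion molecule that the pathway induces, were read below the array medians, at 3.99 to 4.40 and 2.98 to 3.47 over the 6 arrays, with differences of 0.10 and -0.13. TNFAIP2 and TNFAIP8, both first found as TNF-induced genes, differed by -0.33 (-0.81 to 0.16) and -0.24 (-0.78 to 0.29). The second, dimmer probe set of TNFAIP2 had the opposite sign, at 0.38.

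**Figure D3:**
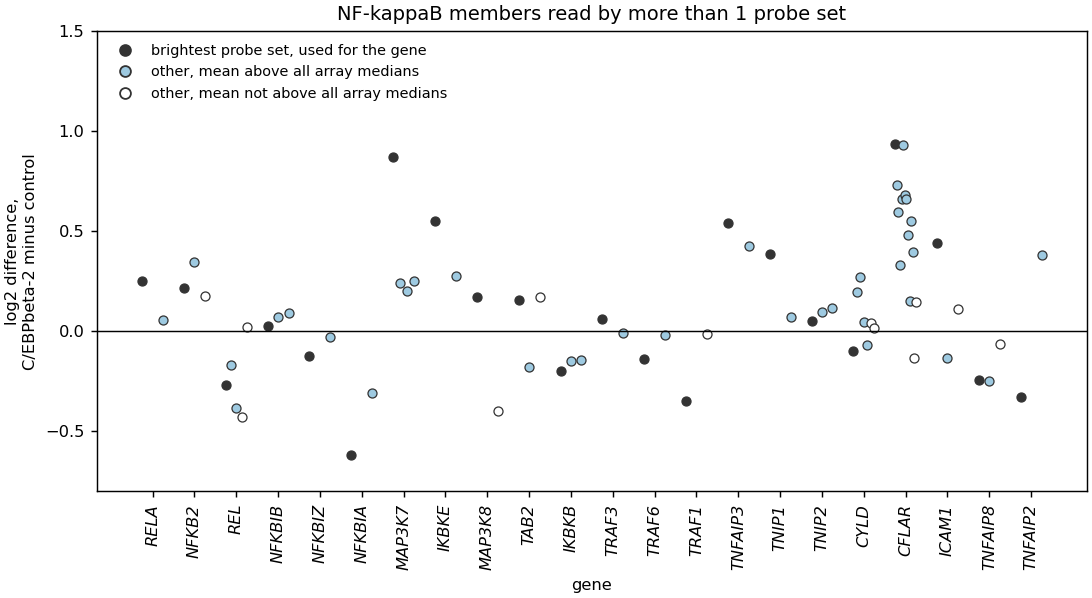
Log2 difference, C/EBPbeta-2 minus control, at each probe set of the 22 NF-kappaB genes read by more than 1; black points are the brightest probe set of a gene, and open points have a mean that is not above every array median. CFLAR has 13 of 14 points above 0, while ICAM1 and TNFAIP2 have points on both sides.

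Probe sets of a gene could differ in sign. The 33 genes had 84 probe sets, 22 genes had more than 1, and in 8 of these the differences lay on both sides of 0. Of the 84, limma called 0 (0.0659% of all probe sets were called), with 6 at an unadjusted p under 0.05 (3.98% of all).

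The arrays varied within groups in a pattern shared by many of these genes. In 12 of the 33 (36.4%), C/EBPbeta-2 replicate 1 was the lowest array of its group and control replicate 2 the lowest of its own, against 21.3% of all genes. The 12 were REL, NFKBIA, IKBKB, CHUK, MAP3K7, TAB2, TRAF1, BIRC2, TNFAIP3, TNIP3, CYLD and CFLAR. These 2 arrays were both the highest of their groups in 3 genes (9.09%), against 27.5% of all genes. Their 18S ribosomal RNA control probe sets read 12.19 and 12.17, against 5.62 to 10.33 on the other 4 arrays, and its part in the pattern was not tested. The share of a gene's variation over the 6 arrays that lay between the groups had a median of 15.7% over the 33 genes and 8.24% over all genes. It was highest for CFLAR (73.2%), IKBKE (66.0%), ICAM1 (65.3%) and NFKBIA (62.9%).

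**Figure D4:**
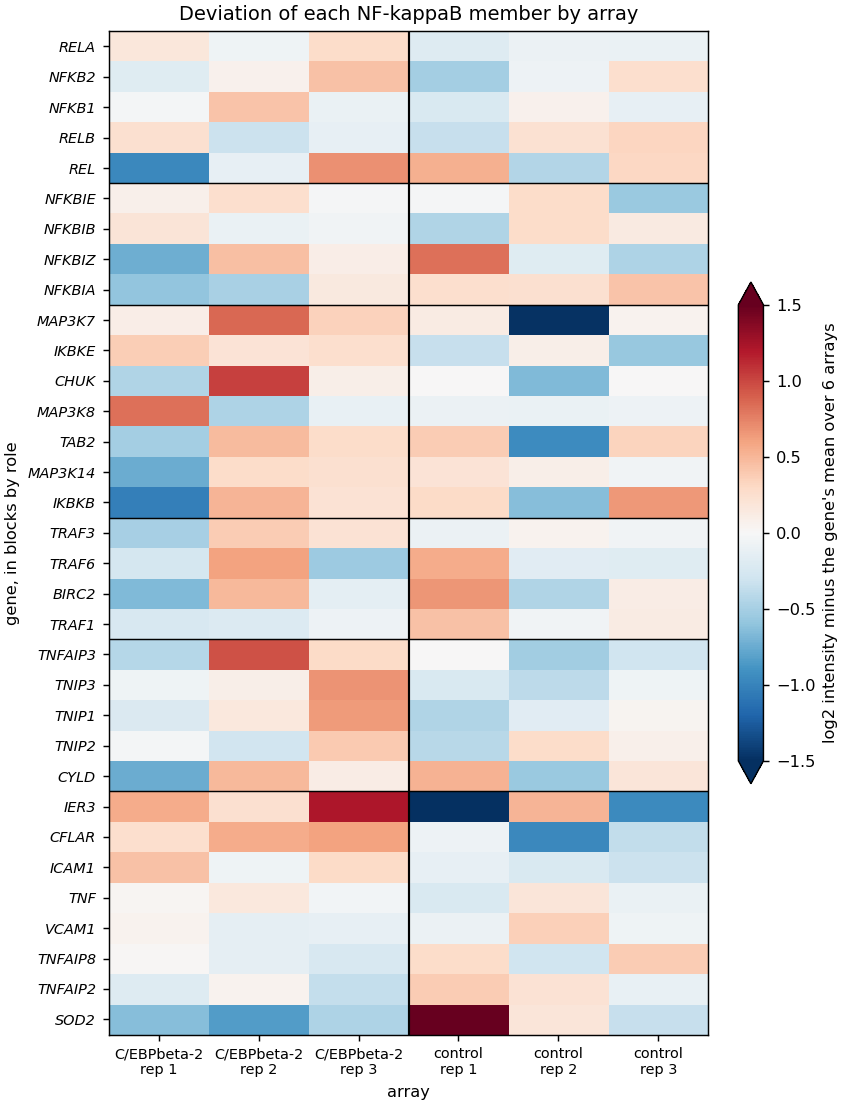
Log2 intensity of each of the 33 NF-kappaB genes on each array minus the mean of that gene over the 6 arrays (red above, blue below), with genes in blocks by role. C/EBPbeta-2 replicate 1 and control replicate 2 are blue together in IKBKB, TAB2, BIRC2 and CYLD, on both sides of the line between groups.

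Other genes of the pathway were read from a list of 31 receptors, adaptors and ligases upstream of IkappaB kinase. Limma called 0 of the 29 read (0.273% of all genes), with 1 at an unadjusted p under 0.05 (3.45%, against 5.17% of all genes), and their median difference was 0.09. That gene was TLR2, the receptor for bacterial lipopeptides, at 5.63, 6.23 and 6.05 against 5.08, 5.34 and 5.44. Its groups did not overlap, and the difference was 0.68 (SE 0.22, adjusted p = 0.619 by limma). MALT1, a scaffold and protease of antigen receptor signalling, differed by 0.60 (SE 0.29). TNFRSF11A, the receptor RANK, differed by -0.57 (SE 0.34) at a dim probe set, and by -0.15 with the mean of its probe sets. Neither gene was called.

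In a list of 26 further targets, mostly secreted proteins, 1 of the 25 read rose (0.091% of all genes were called higher) and 0 fell. Of the 25, 7 had an unadjusted p under 0.05 by limma (28%, against 5.17% of all genes). The list was chosen with earlier results of these data known, so these shares do not test it. IL1B, the cytokine interleukin-1 beta, rose from 5.81, 5.82 and 6.07 in control to 10.92, 10.69 and 11.10 with C/EBPbeta-2, a difference of 5.01, or 32.1-fold (SE 0.18, adjusted p = 0.000602 by limma). On the same arrays its fellow NF-kappaB targets differed in both directions. CSF3, the granulocyte factor, read 8.15, 6.40 and 9.94 against 4.94, 6.87 and 6.07, a difference of 2.20 (SE 0.90, limma adjusted p = 0.930) that was 1.32 without C/EBPbeta-2 replicate 3. CCL20, a chemokine for dendritic and T cells, read 4.40, 4.03 and 4.33 against 6.73, 7.29 and 4.72, a difference of -1.99 (SE 0.62, limma adjusted p = 0.607). Its groups did not overlap, with control replicate 3 close to the C/EBPbeta-2 arrays.

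The others with an unadjusted p under 0.05, named after their values were seen, were IL1A (0.71) and CD83 (0.59), read higher, and the chemokine CXCL1 (-1.76), read lower, all with groups that did not overlap, and PTGS2 (1.16). PTGS2 was read at a dim probe set, where C/EBPbeta-2 replicate 1 (3.69) lay within the control range of 3.37 to 3.76. IL6, at a dim probe set, and CXCL8, cytokines often used as readouts of the pathway and named here for that reason, differed by -0.04 and -0.22. The median difference of the 25 was -0.01.

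**Figure D5:**
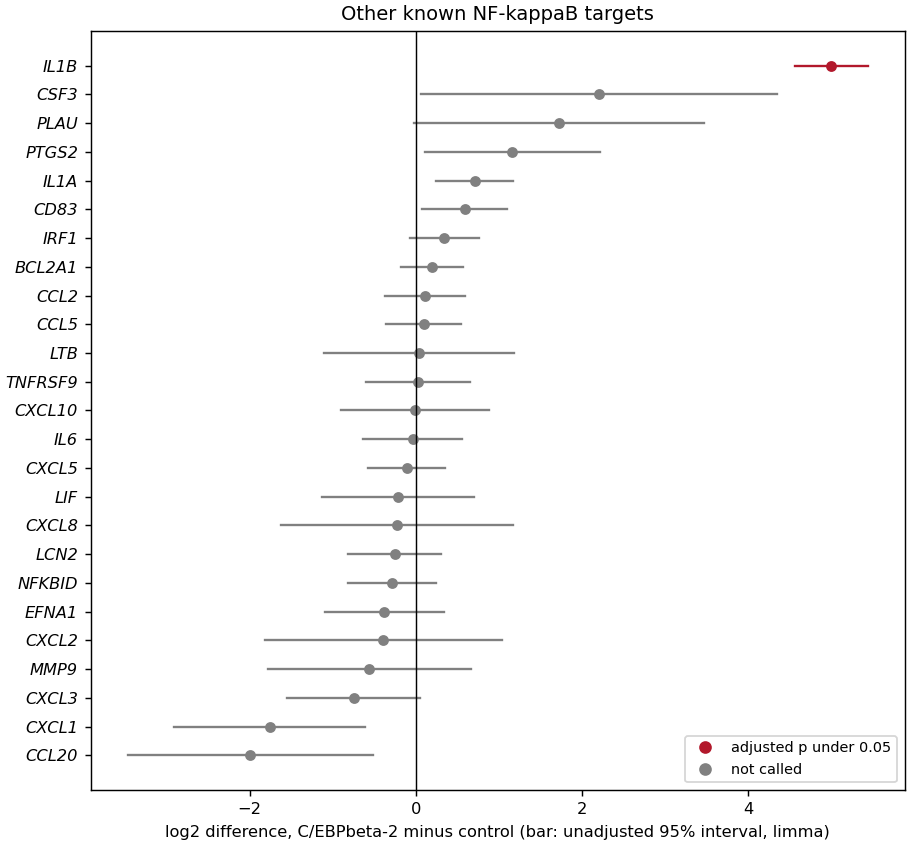
Log2 difference, C/EBPbeta-2 minus control, of the 25 other known NF-kappaB targets read, with the unadjusted 95% interval from limma (n = 3 arrays per group). IL1B, in red, is the only one called, at 5.01, and CCL20 lies at the other end, at -1.99.

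The promoters of IL1B and CCL20, the highest and the lowest difference of that list, differ in the 2 motifs searched. In this window IL1B held the C/EBP core and no match to the kappaB consensus, and CCL20 held a kappaB match and no C/EBP core. The 60-base windows show the match in capitals.
IL1B: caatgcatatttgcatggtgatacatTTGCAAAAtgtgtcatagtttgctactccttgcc
CCL20: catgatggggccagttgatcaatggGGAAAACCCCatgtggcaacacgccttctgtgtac
They lie at chr2:112836961-112837020 on the minus strand and chr2:227813738-227813797 on the plus strand of GRCh38.p14. Among all 21 targets with a promoter in the table, 13 held a kappaB match (61.9%, against 7.09% of all genes there). The C/EBP core lay in 6 of the 21 (28.6%, against 12.7%). This list too was chosen by name as known targets, so its shares may follow from that choice. Besides IL1B, the core lay in PLAU (1.72) and PTGS2 (1.16), read higher, and in CXCL2 (-0.39), LCN2 (-0.25) and IL6 (-0.04), read lower. The targets with a kappaB match also lay on both sides of 0, from CCL20 (-1.99) to CD83 (0.59). A link of motif and direction was not tested. These letters were not tested for binding, and no match says only that the letters are not in this window.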

How the data were processed

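The deposited values were intensities, 1 per probe set and array, on a linear scale, made with RMA per the submitters' processing notes. No version, setting or detection call is given in the sources used here. They were taken to log2 with no pseudocount or further normalization. Of 54675 probe sets, 62 control probe sets were set aside. The probe annotation gave 1 symbol for 41091 of the rest, several for 1801 and none for 11721. The genes were fitted with limma 3.58.1 in R 4.3.3 (lmFit and eBayes, no covariate, two-sided) over all 6 arrays, with Benjamini-Hochberg adjustment over 19775 genes, or over 54613 probe sets, and a call at an adjusted p under 0.05. SE and intervals are those of the fitted difference. The fit was tested on simulated data. After a first simulation exceeded its limit on false calls, both the simulated variances and the pass limits were changed. The simulated noise was independent between genes, so it does not cover deviations that genes share on an array. Promoters are RefSeq's.

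The genes and lists were chosen with earlier results of these data known. Every one of the 33 genes is named. Values on each array are given in full where a gene was called, had an unadjusted p under 0.05, had groups that do not overlap or differed by 0.58 or more, and for REL and TNFAIP3, chosen after their values were seen. Of the other lists, called genes and up to 3 with the largest differences are named, with exceptions stated. Alternatives left out each array, added a replicate or spike-level block, and changed normalization, filter, prior variance, weights or probe sets.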

Additional observations from a re-analysis of the deposited data

How the results depend on the processing

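No NF-kappaB gene was called under any of the 17 alternatives run, 2 of them (high spike-level arrays only, prior variance over all probe sets) chosen after seeing the data. The lowest limma adjusted p was 0.0910, for IER3 with array weights. Of the 33 genes 15 kept their sign in every alternative that read them and 18 did not.

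The genes at an unadjusted p under 0.05, 4 in the main fit, are given here with the share of all genes in brackets. They were 2 with the replicate block (3.86%), after another quantile normalization (5.36%), with probe sets averaged per gene (5.12%) and on the 4 high-spike arrays (3.59%). Without _x_at and _s_at probe sets, where 22 genes were read, they were 0 (4.7%). With array weights they were 6 (9.54%). They were 5 with arrays centred on their median (5.19%), with the spike-level block (6.71%) and with the prior over all probe sets (5.4%). They were 3 without dim probe sets (6.19%) and with the trended prior (4.67%). Leaving out 1 array gave 1 to 5 (3.97% to 6.88%). The genes with no overlap, 7 of 33 in the main fit, are likewise counts with the share of all genes in brackets. They were 3 of 33 after quantile normalization (9.16%) and 4 of 33 with the mean of probe sets (8.54%). Without _x_at and _s_at probe sets they were 2 of 22 (8.31%). On the high-spike arrays they were 11 of 33 (24%), and with 1 array left out 7 to 16 of 33 (14.9% to 21.1%). The median difference of all 33 genes was 0.033 to 0.21 with 1 array left out, against -0.012 to 0.042 over all genes. Over all genes limma called 54, but 8 to 75 with 1 array left out, 214 with array weights and 0 with the replicate block (763 at an unadjusted p under 0.05). With that block the target list had 0 calls, since IL1B had an adjusted p of 0.0517 (0.000177 to 0.0517 over all alternatives). Same-numbered arrays deviated together in 1 of 3 pairs (correlations -0.521, -0.597 and 0.343 over all genes), so the numbers were not taken to pair the samples. C/EBPbeta-2 replicate 1 correlated best with control replicate 2 (0.651) and C/EBPbeta-2 replicate 2 with control replicate 1 (0.665), so for numbers 1 and 2 the block joins arrays that deviate in opposite directions.

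Signs turned for ICAM1 after quantile normalization (-0.15, another probe set). With array weights they turned for NFKBIZ (0.083), MAP3K14 (0.040) and TAB2 (-0.064). With the mean of probe sets they turned for MAP3K8 (-0.11), CYLD (0.058) and TNFAIP2 (0.026), and without _x_at and _s_at probe sets for CYLD (0.20). On the high-spike arrays they turned for NFKB1 (-0.034), NFKBIB (-0.14), NFKBIZ (0.0029), TRAF3 (-0.14) and TNF (-0.047). With 1 array left out the differences ran from -0.68 to 0.15 for REL, -0.19 to 0.17 for NFKBIB, -0.39 to 0.26 for NFKBIZ, -0.57 to 0.26 for IKBKB, -0.20 to 0.45 for MAP3K8, -0.33 to 0.18 for MAP3K14, -0.28 to 0.45 for TAB2, -0.11 to 0.32 for TRAF3, -0.48 to 0.11 for TRAF6, -0.51 to 0.063 for BIRC2, -0.15 to 0.21 for TNIP2, -0.40 to 0.25 for CYLD, -0.21 to 0.0094 for VCAM1 and -0.032 to 0.39 for NFKBIE. The cause of these changes was not tested beyond what is named. Signals below the array medians limit TRAF1, MAP3K8, TNIP3, TNF and VCAM1.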
